A study of Arabidopsis thaliana with 9 samples.

Results

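The magnesium branch of chlorophyll synthesis and the protochlorophyllide oxidoreductases (PORs) were followed as 10 nuclear genes of Arabidopsis thaliana, chosen by locus: CHLH, CHLD, CHLI1, CHLI2, GUN4, CHLM, CRD1, PORA, PORB and PORC. All 10 were among the 32833 loci of the deposited table, and 9 of the 10 passed the filter for the seedling test, which kept 18818 loci that reached 1 FPKM in 3 or more of the 6 seedling libraries. PORA did not pass and is given by its values. FPKM counts sequenced fragments per unit of transcript length and per mapped fragment, so levels of different genes can be set side by side within a library.

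RNA sequencing covered 3 groups of 3 libraries. Wild type Col-0 seedlings and ntrc mutant seedlings were 6 days old and had grown on MS, a mineral salt medium, in continuous light of 125 µE per square metre and second. Young rosette leaves of ntrc plants came from soil at the age of 8 weeks, from short days under the same light intensity, taken 2 h into the illuminated period, with leaves of 3 plants in each library. The labels name the mutant as ntrc without an allele, and adult wild type libraries were not analysed here. Adult and seedling libraries were also built with different kits (ribosomal RNA depletion and mRNA preparation, respectively), so stage, organ, light regime, medium and kit cannot be told apart.

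NTRC is a chloroplast protein that joins an NADPH-dependent thioredoxin reductase to a thioredoxin domain and passes electrons to the disulfides of other chloroplast proteins. Enzymes of tetrapyrrole synthesis are known among its targets, CHLM and the glutamyl-tRNA reductase encoded by HEMA1 among them, and ntrc plants are pale green. In the magnesium branch, Mg-chelatase inserts magnesium into protoporphyrin IX, CHLM adds a methyl group, the cyclase that contains CRD1 closes the isocyclic ring, and POR reduces protochlorophyllide in a step that needs light in flowering plants. Several of the proteins are regulated by thiol redox state, whereas the values here are levels of RNA.

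The 3 POR genes are related copies, as is the CHLI pair, so the coding sequences were compared to see how alike they are. Parts of the transcripts outside the coding sequence were not compared. Sequences were read from the RefSeq genome TAIR10.1, whose nuclear chromosomes have the sequence of TAIR10, the build named by the submitters' processing notes. The coding sequences of PORA (chromosome 5) and PORB (chromosome 4) were identical at 1005 of 1206 aligned bases (83.3%), and those of PORC (chromosome 1) and PORB at 887 of 1189 (74.6%). CHLI1 and CHLI2 shared 1028 of 1257 aligned bases (81.8%). The longest exact match was 44 bases in either of the closest pairs, and no window of 50 bases was shared by any of the 4 pairs compared. The matching stretches are printed 5′ to 3′ on the coding strand, with the exact match in capitals, for coding bases 1 to 60 of both PORs and for coding bases 635 to 694 of CHLI1 and 617 to 676 of CHLI2.
PORA: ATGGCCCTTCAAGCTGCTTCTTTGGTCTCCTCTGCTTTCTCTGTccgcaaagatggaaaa
PORB: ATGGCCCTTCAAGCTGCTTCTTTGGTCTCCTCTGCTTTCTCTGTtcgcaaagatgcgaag
CHLI1: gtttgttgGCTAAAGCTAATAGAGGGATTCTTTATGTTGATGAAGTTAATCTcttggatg
CHLI2: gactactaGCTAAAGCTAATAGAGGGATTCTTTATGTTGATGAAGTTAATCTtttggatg

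The read length and the treatment of reads with several matches are not given in the sources used here, so how far reads were shared between these copies is unknown.

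The regions just upstream of the genes were searched for motifs that are known from light- and clock-regulated genes. The part of these motifs in the levels, or in their variation between libraries, was not tested. The windows held the 250 bases before the annotated start of each gene, and both strands were read. Those of CHLI1, GUN4, CHLM, CRD1, PORB and PORC overlapped a neighbouring annotated gene. The evening element, AAAATATCT, occurred upstream of PORA and PORB, that is in 2 of 10 members and in 2.36% of 27443 protein-coding genes. CCAATC, a motif linked to GLK transcription factors, occurred at GUN4 and PORB (10.2% of all genes), the G-box CACGTG at CRD1 (6.49%), and GATAAG at PORA (12.3%). No motif overlapped another in these members, and the other 6 members held none of the 4 in this window. The stretch around the evening element is printed for PORA (TAIR10.1 chr5:21992926-21993014, minus strand) and PORB (chr4:13725384-13725472, plus strand). It is recognisably alike in these related genes, whose levels lay far apart, with 60 of 86 aligned bases identical (69.8%). The stretch around the G-box is printed for CRD1 (chr3:21076423-21076488, plus strand), the member with the highest level in each group. None of these stretches overlaps an annotated gene, and capitals mark the motif.
PORA: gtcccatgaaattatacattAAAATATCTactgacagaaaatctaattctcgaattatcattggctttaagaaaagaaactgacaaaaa
PORB: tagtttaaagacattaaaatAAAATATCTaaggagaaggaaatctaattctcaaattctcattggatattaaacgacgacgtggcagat
CRD1: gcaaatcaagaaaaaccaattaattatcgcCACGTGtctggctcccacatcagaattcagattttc

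The libraries matched their labels where this could be checked. NTRC (AT2G41680) read 130, 175 and 141 FPKM in the wild type seedling libraries and 16.4 to 19.6 FPKM in the ntrc seedling libraries, groups that did not overlap, with a log2 difference of -2.98 (SE 0.13, adjusted p = 0.000588, limma with Benjamini-Hochberg adjustment). Adult ntrc libraries read 15.1 to 16.2 FPKM on their own scale. All 6 leaf markers were above 1 FPKM on average in each group, with RBCS1A and RCA among them. Of 8 root markers, all 8 reached that level in seedlings of either genotype and 1, PYK10, in adult leaves, where EXPA7 and RHD6 were listed at 0 in each library. Summed root markers ranged from 1347 to 1693 FPKM in wild type and from 1537 to 1657 FPKM in ntrc seedlings, nearly all of it PYK10, at 1260 to 1642 FPKM. Of the 8 root markers, 6 were higher and 2 lower in ntrc seedlings, with a median log2 difference of 0.089. ESB1, a protein of the endodermal barrier, was at 7.83 to 12.7 FPKM in wild type and 4.93 to 6.54 FPKM in ntrc. It was lower in 3 of 3 pairs (15.2% of all genes tested), and the genotypes did not overlap (9.76%). Its log2 difference was -0.73 (SE 0.17, adjusted p = 0.947, limma with Benjamini-Hochberg), while CASP1 and MYB36 had 0.22 and 0.34. The part of root tissue in the results was not tested. Of 4 seed reserve genes 2 passed the filter, and both were higher in ntrc seedlings. OLEO2 was at 3.84 to 4.12 FPKM in wild type and 5.35 to 13.4 FPKM in ntrc seedlings, without overlap. Its log2 difference was 0.95 (SE 0.27, adjusted p = 0.947, limma with Benjamini-Hochberg), while CRA1 had 0.041. The part of this difference in the results was not tested either. The deposited values had an upper quartile of 3.70 (log2) in each seedling library and 2.44 in each adult library, so the stages were scaled separately. Equal quartiles within a stage mean that the values had been scaled further and are not strictly per mapped fragment.

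The genes of the branch spanned a wide range of levels, and the order was nearly the same in the 3 groups. CRD1 (AT3G56940), the membrane-bound component of the ring cyclase, stood first, at 1315 ± 201 FPKM in seedlings of the wild type, 1424 ± 175 FPKM in those of ntrc and 526 ± 16.6 FPKM in the adult leaves (mean ± SD over 3 libraries, as in all that follow). CHLH came next in each group, followed by CHLI1. PORA stood last, below CHLI2. In wild type seedlings the ranges over libraries did not overlap between CRD1 and CHLH, CHLI1 and CHLM, CHLM and GUN4, PORC and CHLI2, or CHLI2 and PORA. The ranges of CHLH and CHLI1 overlapped, as did those along the run from GUN4 through PORB and CHLD to PORC. Within libraries, CHLH exceeded CHLI1, GUN4 exceeded PORB and PORB exceeded CHLD in 3 of 3 wild type libraries, and CHLD exceeded PORC in 2 of 3.

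**Figure D1:**
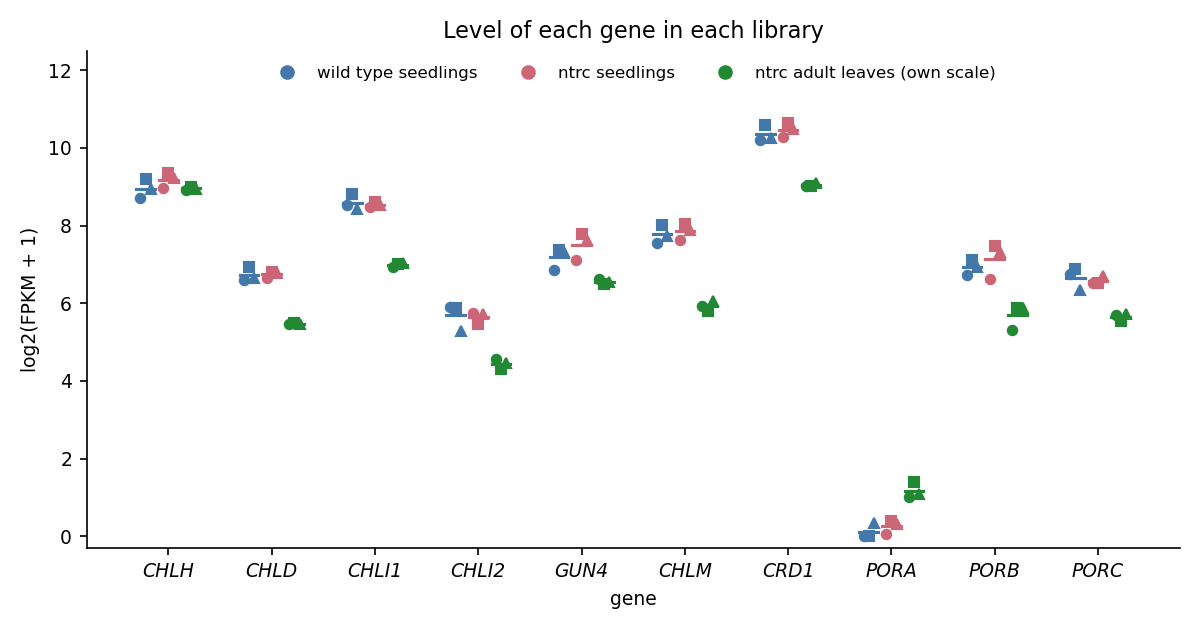
Levels of the 10 genes as log2(FPKM + 1) on the vertical axis, with 1 point per library (circle, square and triangle for replicates 1, 2 and 3) and a bar at the mean of 3 libraries. CRD1 is highest in each group and PORA is near 0 in seedlings. The points of the 2 seedling genotypes overlap for each gene. Adult values were scaled separately and are not to be read against seedling values.

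The question put to the seedling libraries was whether loss of NTRC was accompanied by other levels of these transcripts. None of the 9 tested members passed the test over all genes (limma, Benjamini-Hochberg adjusted p of 0.947 to 0.992), where 5 of 18818 genes did, or 0.0266%. The labels name no pairs. Taking same-numbered libraries as pairs, a choice drawn from the same values, 73 genes passed (0.388%), again with no member among them. The smallest adjusted p of a member in that fit was 0.189, for GUN4. Before adjustment, limma without pairing gave 0 of 9 members a p under 0.05, beside 943 of all 18818 genes. The paired fit gave 2 of 9, GUN4 and CHLH, beside 2185 of all 18818 genes. The genotypes did not overlap for 0 of 9 members, against 9.76% of all genes tested. The median log2 difference of the 9 was 0.080, with 6 higher and 3 lower in ntrc, beside 0.0037 over all genes. It ranged from 0.032 to 0.20 with 1 library left out and was 0.0091 under quantile normalization. The 95% intervals of the 9 single differences together spanned a fold of 0.730 to 1.77 (ntrc over wild type, per gene and not adjusted for the number of genes), so larger changes lie outside each of them.

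Mg-chelatase has the subunits H, D and I. CHLH (AT5G13630), the large subunit that binds the porphyrin, read 417, 582 and 492 FPKM in wild type libraries 1 to 3 and 495, 651 and 601 FPKM in ntrc libraries 1 to 3. The ranges overlapped, while the ntrc library was the higher in each same-numbered pair. The log2 difference was 0.23 (SE 0.16, 95% interval -0.15 to 0.61), a 1.17-fold higher mean that did not pass (adjusted p = 0.947 without pairing and 0.373 with it, limma with Benjamini-Hochberg). It was 0.11 without wild type library 1 and 0.35 without wild type library 2.

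GUN4 (AT3G59400), a porphyrin-binding protein that stimulates the chelatase, had the largest difference among the members. It read 115, 164 and 158 FPKM in wild type and 137, 221 and 196 FPKM in ntrc seedlings, again with overlapping ranges and with ntrc higher in each pair. The log2 difference of 0.33 (SE 0.21, interval -0.17 to 0.82) had an adjusted p of 0.947, and 0.189 with pairing (limma, Benjamini-Hochberg). It was 0.53 without ntrc library 1 and 0.17 without wild type library 1, neither of which passed. Both of these libraries are the lowest of their genotype for GUN4 and for CHLH.

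CHLD (AT1G08520), the subunit that bridges H and I, read 95.2, 121 and 98.5 FPKM in wild type libraries 1 to 3, against 98.9, 111 and 110 FPKM in the mutant. The ntrc range fell inside that of wild type, and the log2 difference was 0.025 (SE 0.12). CHLI1 (AT4G18480), the main ATPase subunit, read 367, 450 and 346 FPKM in the wild type, against 355, 387 and 365 FPKM in the mutant. The ntrc libraries again lay within the wild type range, with a log2 difference of -0.061 (SE 0.13).

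CHLI2 (AT5G45930), the minor copy of that subunit, read 59.0, 57.3 and 38.1 FPKM in the wild type, against 52.8, 43.3 and 51.8 FPKM in the mutant. Its pairs went in opposite directions, with log2 differences of -0.16, -0.40 and 0.44 in pairs 1 to 3, and the difference of the means was -0.040 (SE 0.18). The directions for CHLD, CHLI1 and CHLI2 turned when single libraries were left out.

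The steps after the chelatase showed similarly small differences. CHLM (AT4G25080), the Mg-protoporphyrin IX methyltransferase, read 187, 258 and 213 FPKM in the wild type, against 198, 263 and 234 FPKM in the mutant. Each ntrc library exceeded its same-numbered wild type library by a small amount, 0.023 to 0.14 on the log2 scale, within ranges that overlapped almost wholly. The log2 difference was 0.080 (SE 0.16), and -0.028 without wild type library 1 or -0.015 without ntrc library 2.

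CRD1 read 1171, 1544 and 1229 FPKM in the wild type, against 1249, 1599 and 1425 FPKM in the mutant, a log2 difference of 0.12 (SE 0.16, interval -0.26 to 0.50). It too was higher in ntrc in each pair, and under quantile normalization its difference was 0.0024, while that of CHLH was 0.14. In all, 4 of 9 members (CHLH, GUN4, CHLM and CRD1) were higher in 3 of 3 pairs, a state shared by 18.7% of all genes tested, and 0 were lower in 3 of 3 pairs (15.2% of all genes). These 4 genes followed each other over the 6 seedling libraries (Pearson's r of 0.84 to 0.97). They therefore do not count as 4 separate observations.

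**Figure D2:**
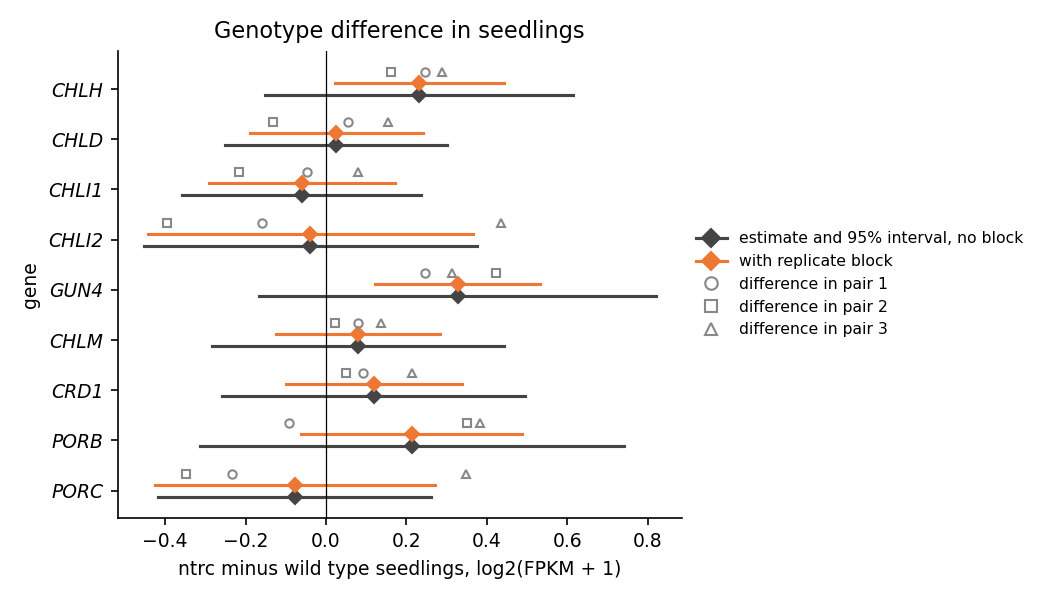
Difference between ntrc and wild type seedlings in log2(FPKM + 1) for the 9 tested genes. Diamonds are estimates with 95% intervals, dark without and orange with the replicate number as a block, and open symbols are the differences within pairs 1 to 3. The intervals without a block all cross 0. With the block those of GUN4 and CHLH do not, and neither gene passed after adjustment over all genes (0.189 and 0.373, limma with Benjamini-Hochberg).

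The PORs differ in when they are used: in Arabidopsis PORA is known for dark-grown seedlings and its transcript falls away in light, PORB is present in dark and light, and PORC is known from green, illuminated tissue. PORA (AT5G54190) was listed at 0 in wild type seedling libraries 1 and 2 and at 0.270 FPKM in library 3, and it read 0.0471, 0.306 and 0.234 FPKM in the ntrc seedlings. These values are all below the filter of 1 FPKM, the groups overlapped, and no fold is given. In adult ntrc leaves PORA read 1.01, 1.63 and 1.12 FPKM on that stage's scale.

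PORB (AT4G27440) read 105, 137 and 122 FPKM in wild type and 98.3, 176 and 159 FPKM in ntrc seedlings. ntrc libraries 2 and 3 lay above all wild type libraries and ntrc library 1 below all of them. The log2 difference was 0.21 (SE 0.22, interval -0.31 to 0.74), with values of 0.052 without ntrc library 2 and 0.47 without ntrc library 1.

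PORC (AT1G03630) read 106, 116 and 80.6 FPKM in wild type and 89.9, 90.8 and 103 FPKM in ntrc seedlings, so that the ntrc libraries lay inside the wild type range. Its log2 difference was -0.078 (SE 0.15, interval -0.42 to 0.26), and 0.029 without wild type library 2.

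Shares within a library do not depend on how the library was scaled, provided that the scaling was linear in FPKM. PORB made up 54.7 ± 5.20% of the summed POR level in seedlings of the wild type, 59.6 ± 6.89% in those of ntrc and 50.04 ± 6.45% in the adult leaves. PORC made up 45.3 ± 5.26%, 40.4 ± 6.93% and 48.7 ± 6.62%, respectively. The share of PORB was higher in ntrc in each pair of seedling libraries (49.7, 54.3 and 60.1% in the wild type, against 52.2, 65.8 and 60.7% in the mutant), and the groups overlapped (exact two-sided permutation test, p = 0.4, and 0.571 adjusted over the 10 shares and ratios computed). The share of PORA was 0 to 0.133% in the seedling libraries of both genotypes and 1.01 to 1.55% in adult leaves. These shares rest on PORA values of at most 0.306 FPKM in seedlings and of 1.01 to 1.63 FPKM in adults. All are below or near the filter of 1 FPKM, and how far reads were shared with PORB is unknown.

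The balance between the subunits of the chelatase was read the same way. CHLH over the sum of CHLI1 and CHLI2 was 0.980, 1.15 and 1.28 in wild type seedlings and 1.21, 1.51 and 1.44 in ntrc seedlings. The ratio was higher in ntrc in each pair, by 0.29 on the log2 scale on average, with overlapping groups (exact two-sided permutation p = 0.2, adjusted p = 0.571). With 3 libraries against 3 this test cannot go below 0.1. CHLD over CHLI1 and CHLI2 was 0.224 to 0.257 in wild type and 0.243 to 0.263 in ntrc (exact permutation p = 0.2). GUN4 over CHLH, CRD1 over CHLM, CHLI1 over CHLI2, PORC over PORB, and the PORs over the other 7 genes had a permutation p of 0.4 or above.

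Adult ntrc leaves held a different balance from seedlings of either genotype, given here as values with no test. CHLH over CHLI1 and CHLI2 was 3.36, 3.50 and 3.26 in the adult libraries, above each of the 6 seedling libraries. CHLH accounted for 33.8 ± 1.06% of the summed FPKM of the 10 genes there, against 18.3 ± 0.350% in ntrc seedlings and 16.9 ± 0.910% in wild type seedlings. CRD1 accounted for 35.9 ± 0.633% in adult leaves and for 44.7 ± 0.686% in ntrc seedlings, so that CRD1 and CHLH lay close together in adults (526 ± 16.6 and 495 ± 13.2 FPKM).

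GUN4 over CHLH was lower in adults (0.173 to 0.200) than in all seedling libraries (0.276 to 0.340), CRD1 over CHLM was higher (8.36 to 9.36 against 5.77 to 6.31), and CHLD over CHLI1 and CHLI2 was higher (0.289 to 0.300 against 0.224 to 0.263). CHLI1 over CHLI2, PORC over PORB and the PORs over the other genes overlapped between adult leaves and seedlings. CHLH also has by far the longest transcript of the 10, with 4753 bases in the RefSeq annotation against 1296 for GUN4 and 2643 for CHLD. The part of transcript length and of the kits in these differences was not tested.

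By percentile, CHLH stood between 99.1 and 99.2 of loci with at least 1 FPKM in adult libraries and between 99.2 and 99.4 in ntrc seedlings. There were 15331 to 15460 such loci in the adult libraries and 18581 to 18757 in the ntrc seedling libraries. The percentiles of the stages thus rest on different numbers of loci and are not positions counted from the top. CHLM stood at 94.6 to 95.3 in adults and 97.5 to 98.0 in ntrc seedlings, and CHLI1 at 97.4 to 97.5 and 98.7 to 98.8. The percentiles of PORC overlapped between these groups, at 93.8 to 94.2 and 93.7 to 94.6. CHLH, CHLD, CHLI1, CHLM and CRD1 had a lower percentile in each adult library than in each ntrc seedling library. The percentiles of GUN4, CHLI2, PORB and PORC overlapped. The part of the differing numbers of loci in these shifts was not tested.

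**Figure D3:**
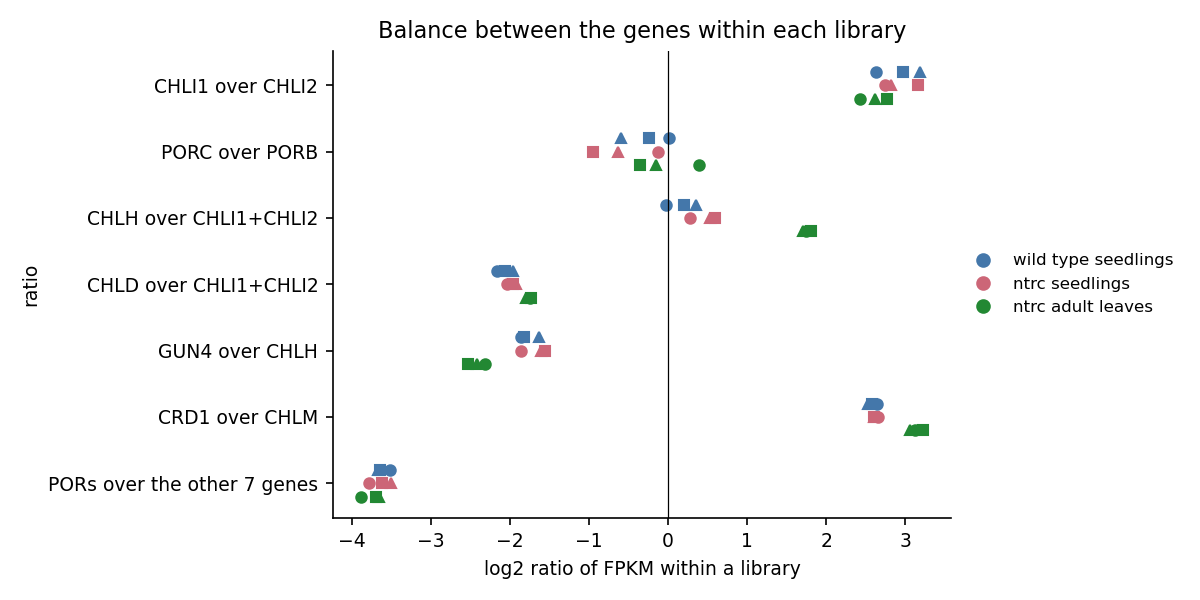
Ratios between genes within each library on a log2 axis, with 1 point per library (circle, square and triangle for replicates 1, 2 and 3). Adult ntrc leaves (green) lie apart from all 6 seedling libraries for CHLH over CHLI1 and CHLI2 (3.26 to 3.50 against 0.980 to 1.51 on a linear scale), GUN4 over CHLH, CRD1 over CHLM and CHLD over CHLI1 and CHLI2. The 2 seedling genotypes overlap for each ratio.

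The members did not vary between seedling libraries as a single block. CHLH, GUN4, CHLM, CRD1 and PORB followed each other, with Pearson's r of 0.841 to 0.974 over the 6 seedling libraries for the 10 pairs among them. PORC and CHLI2 followed each other (r = 0.861) and were near 0 or negative against CHLH (0.074 and -0.25) and GUN4 (-0.12 and -0.47). These sets were named after the values were seen, the 6 libraries share 2 genotypes and paired numbers, and the coefficients are a description. Across all 36 pairs of the 9 tested members r ranged from -0.47 to 0.974 with a median of 0.691.

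In the first set library 1 was the lowest of its genotype and library 2 the highest, for each of the 5 genes and in both genotypes. CHLD, which was not placed in this set, took the same course in both genotypes, with r of 0.82 to CHLH, 0.917 to CHLM and 0.919 to CRD1. The sum of the 10 genes was 2623, 3431 and 2777 FPKM in wild type libraries 1 to 3 and 2774, 3541 and 3246 FPKM in ntrc libraries 1 to 3. The sum of the 6 leaf markers moved alongside, at 23683, 30746 and 25214 FPKM in the wild type, against 23691, 27007 and 26445 FPKM in the mutant, and so did the FPKM total of the whole library, which was lowest in library 1 and highest in library 2 of either genotype. Most of the leaf marker sum was RBCS1A, the small subunit of Rubisco, at 14434 to 19071 FPKM in the 6 seedling libraries. GLDP1, of photorespiration, and PSBS, of photoprotection, took another course, lowest in library 3 of either genotype and, in ntrc, highest in library 1 (492, 459 and 436 FPKM for GLDP1, and 1024, 990 and 945 FPKM for PSBS). Fewer green cells and less RNA of these genes per cell cannot be told apart in whole seedlings, and the part of the leaf share or of the scaling in these differences was not tested.

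**Figure D4:**
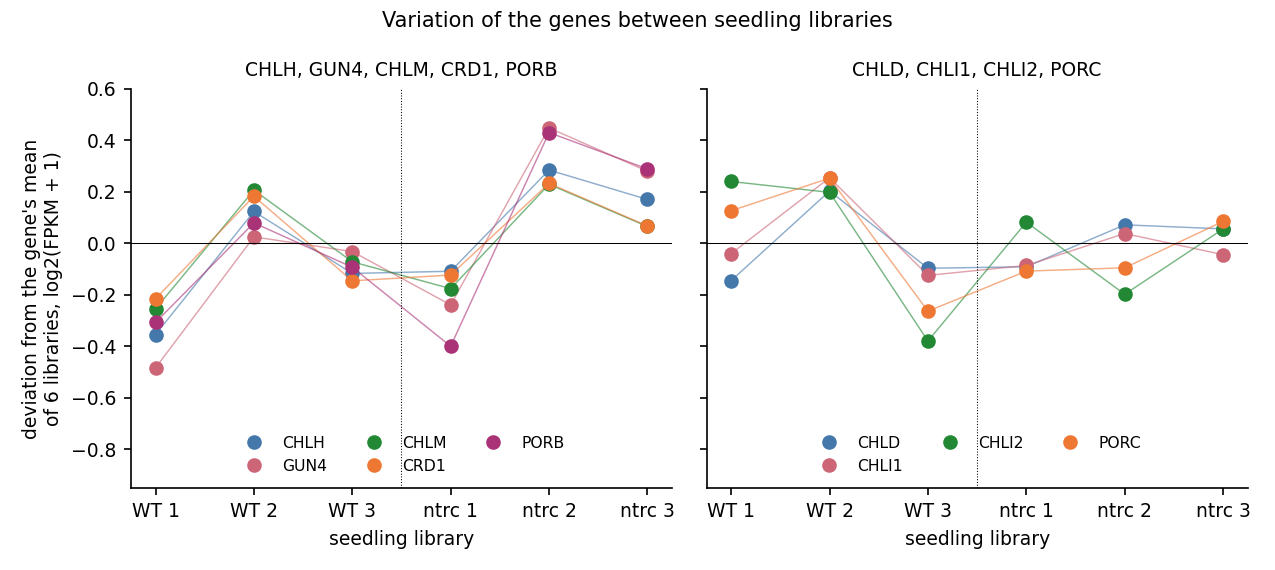
Deviation of each gene from its mean over 6 seedling libraries in log2(FPKM + 1), with 1 point per library and lines that only join the points of a gene. CHLH, GUN4, CHLM, CRD1 and PORB (left) share a low library 1 and a high library 2 in both genotypes (r of 0.841 to 0.974), as does CHLD (right), whereas CHLI2 and PORC (right) take another course.

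Genes outside the branch that tracked the mean standardised profile of the 9 tested members most closely over the 6 seedling libraries were AT3G62370, AT5G62720, AT5G19390, AT1G01390 and PERK14 (AT4G32710), with r of 0.997 to 0.994. Among 18809 tested non-members 242 (1.29%) had r above 0.9. The members themselves had r of 0.968 for CHLD, 0.959 for CRD1 and 0.926 for CHLM to this profile, of which each is a part, and 0.168 for CHLI2.

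The remaining tetrapyrrole genes were followed in 5 lists. Of 12 early genes, from glutamyl-tRNA to protoporphyrin IX, 7 were higher and 5 lower in ntrc with a median log2 difference of 0.0061, and none passed. HEMA1 (AT1G58290), whose product makes the first committed step towards 5-aminolevulinic acid, had a log2 difference of 0.61 (SE 0.21). This was a larger value than that of any member of the magnesium branch. HEMA1 was higher in each pair, with an adjusted p of 0.947 and 0.0827 with pairing (limma, Benjamini-Hochberg). PPO2 (AT5G14220), a protoporphyrinogen oxidase, had -0.11.

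Of 7 genes for the last steps and their partners, 2 were higher and 5 lower, with a median of -0.075. CAO (AT1G44446), which makes chlorophyll b, had a log2 difference of 0.18, and CHLP (AT1G74470), the geranylgeranyl reductase for the phytol tail, had 0.21. Of 5 genes for proteins that regulate the pathway after translation, 2 were higher and 3 lower (median -0.012). GUN1 (AT2G31400), a plastid protein of retrograde signalling, had -0.22, and BCM1 (AT2G35260), a thylakoid protein that stimulates Mg-chelatase through GUN4, had 0.21. None of these lists held a gene that passed, with or without pairing.

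Transcription factors known to act on chlorophyll genes showed 5 of 11 higher and 6 lower, with a median of -0.017. PIF4 (AT2G43010) and PIF5 (AT3G59060), phytochrome-interacting factors, had log2 differences of 0.41 and 0.16. On the heme and siroheme side 2 of 6 genes were higher and 4 lower, with a median of -0.038. UPM1 (AT5G40850), the methyltransferase that leads uroporphyrinogen III to siroheme, had a log2 difference of 0.46 (SE 0.088) with genotypes that did not overlap, a state shared by 9.76% of all genes. Its adjusted p was 0.797, and 0.0841 with pairing (limma, Benjamini-Hochberg). FC2 (AT2G30390), the ferrochelatase of green tissue, had -0.21. In the 5 lists together 0 genes passed in either fit.

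**Figure D5:**
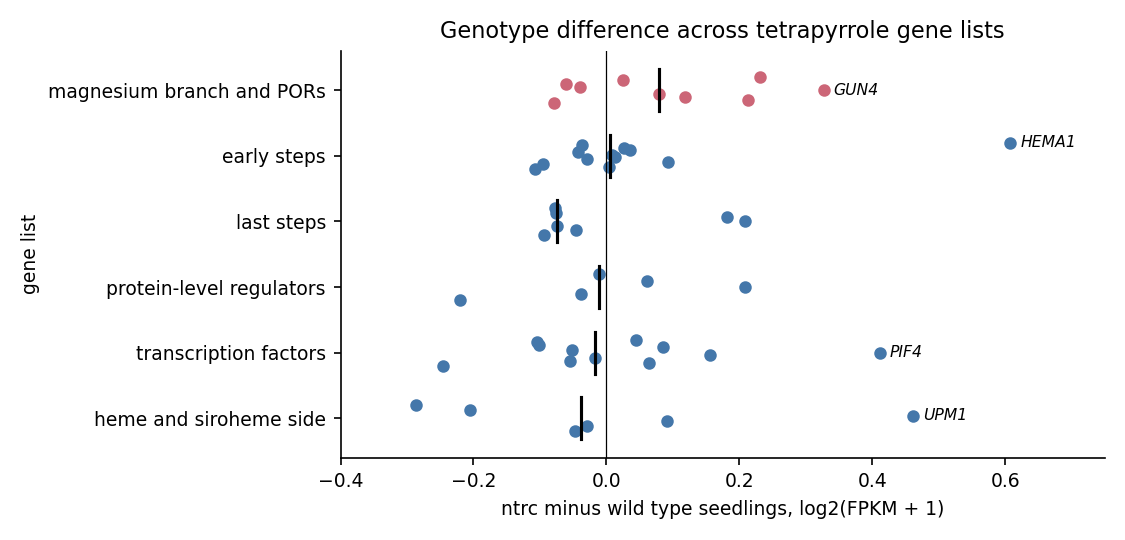
Difference between ntrc and wild type seedlings in log2(FPKM + 1) for the 9 tested genes of the magnesium branch and PORs (red) and for 5 other tetrapyrrole gene lists (blue), with 1 point per gene and a bar at the median of a list. Most genes lie near 0. The labelled GUN4, HEMA1, PIF4 and UPM1, at 0.33, 0.61, 0.41 and 0.46, lie furthest to the right, and none passed after adjustment over all genes.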

How the data were processed

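The authors deposited a table of 32833 loci by 9 libraries on a log2 scale. The values are read as log2(FPKM + 1) from their range; the base and pseudocount are not stated. Per the submitters' processing notes, FastQC, HISAT2 and StringTie were used with TAIR10. No counts were available, so depth is unknown and precision rests on 3 libraries a group. Use of strand in counting is not stated either. The labels call the libraries of a group biological replicates.

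The 2 seedling groups entered limma 3.58.1 (R 4.3.3; trend and robust moderation, two-sided), over 18818 genes that reached 1 FPKM in 3 or more of 6 libraries, with Benjamini-Hochberg adjustment and a threshold of 0.05. Folds on this scale understate changes of low genes. Deviations from group means correlated with r of 0.506, 0.406 and 0.278 for replicate numbers 1 to 3 across genes. Between libraries of different numbers r was -0.388 to 0.115. Deviations within a group cancel out, which by itself lowers the values between different numbers. Same numbers were taken as pairs, a choice that comes from the values, not the labels. Shares and ratios used exact permutation tests. On simulated data with 50 genes per size, the unpaired fit recovered 14% of genes changed by 0.5 and 80% of those changed by 1 (log2), and the paired fit 0% and 46%. The simulation held 200 changed genes, with changes of up to 3 (log2). It gave 149 calls without pairing and 117 with it, against 5 and 73 in the data. More calls make the adjusted threshold less strict, so the recovered shares cannot be carried over to the real fits. The simulated libraries varied independently, without the likeness of same-numbered libraries seen here. They therefore do not show which fit is the more sensitive on these data. All 10 members matched RefSeq names, and sequences were aligned with Biopython 1.88. Members, gene lists and naming rule (all members, and from each list the 2 genes of smallest unadjusted p) were chosen with earlier results of these data known. Alternatives were another pseudocount, filter, scaling, moderation, pairing, and leaving out each library.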

Additional observations from a re-analysis of the deposited data

How the results depend on the processing

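The count of members that passed was 0 under each alternative tried: with the replicate block, pseudocount 0.1, no filter on low values, quantile normalization, median ratio scaling, moderation without trend and robustness, and without each library in turn. The smallest adjusted p of a member over these fits was 0.189 (GUN4 with the replicate block, limma with Benjamini-Hochberg). NTRC passed in each of them. Over all genes, the replicate block gave 30 genes higher and 43 lower in ntrc, pseudocount 0.1 gave 0 and 2, and fits without 1 library gave 0 to 2 higher and 1 to 22 lower, against 1 and 4 as reported.

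Direction turned only in fits that leave out a library, for 10 of 108 member values. Over those fits log2 differences ranged from -0.041 to 0.13 for CHLD, -0.14 to 0.051 for CHLI1, -0.24 to 0.071 for CHLI2, -0.028 to 0.20 for CHLM and -0.23 to 0.029 for PORC, while CHLH, GUN4, CRD1 and PORB stayed above 0. Differences in the log2 ratio of CHLI1 to CHLI2 ranged from -0.17 to 0.11 and those of the PORs to the other genes from -0.088 to 0.048. Exact sign-flip permutation tests of the ratios over 3 pairs cannot go below p = 0.25, so the replicate block decides no call there.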
